A study of Mus musculus with 6 samples.

Results

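Regulators of G protein signalling (RGS proteins) were examined in striatal RNA of mouse offspring by the treatment of their sires. The 10 members were the rows of the deposited table with the gene symbols Rgs2, Rgs4, Rgs7, Rgs7bp, Rgs8, Rgs9, Rgs10, Rgs14, Rgs16 and Rgs20, out of 45777 genes, and all 10 passed the filter on low counts. The offspring were 6-week-old ICR mice, an outbred strain. Sires of the methylphenidate group received methylphenidate at 15 mg/kg, and sires of the saline group received saline at 10 mL/kg, each subcutaneously for 21 days from an age of 6 weeks, before mating with untreated females. The offspring themselves were not described as treated. Methylphenidate blocks the dopamine and noradrenaline transporters. Each group had 3 libraries, which the labels give as 2 females and 1 male. The labels do not say how many sires or litters the offspring came from, so a p-value here reflects only how these libraries vary, and they may include littermates.

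An active G protein alpha subunit carries GTP and returns to rest when it hydrolyses it. RGS proteins bind the active alpha subunit and speed that hydrolysis, so that signalling from a G protein-coupled receptor ends sooner. In the striatum, where dopamine, adenosine, opioid and muscarinic receptors all act through G proteins, RGS proteins set how long such signals last. The members fall into subfamilies by their RGS domain. Rgs2, Rgs4, Rgs8 and Rgs16 belong to the R4 subfamily of short proteins, Rgs7 and Rgs9 to the R7 subfamily, Rgs10 and Rgs14 to the R12 subfamily, and Rgs20 to the RZ subfamily. R7 proteins work as a dimer with the atypical G protein beta subunit that Gnb5 encodes, and the protein of Rgs7bp, which has no RGS domain, anchors that dimer at the membrane.

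No table of protein sequences was used here, so the members are shown by the DNA before their starts, for the pair of lowest unadjusted p (Rgs9 and Rgs7, with fold changes of opposite sign) and for Rgs2, an activity-induced gene. Each sequence gives the 250 bases before a transcript start in the RefSeq table, read 5′ to 3′ on the strand of the gene, on build GRCm38.p6 (the assembly that mm10 names). Capitals mark matches on either strand to TATAAA (the core of the TATA box), CCAAT (the CCAAT box) or TGACG (part of a cAMP response element). For Rgs7 that start lies inside the annotated gene, whose outermost base is 175492862, so its sequence is not upstream of the whole gene.
Rgs9, chr11:109298182-109298431, minus strand: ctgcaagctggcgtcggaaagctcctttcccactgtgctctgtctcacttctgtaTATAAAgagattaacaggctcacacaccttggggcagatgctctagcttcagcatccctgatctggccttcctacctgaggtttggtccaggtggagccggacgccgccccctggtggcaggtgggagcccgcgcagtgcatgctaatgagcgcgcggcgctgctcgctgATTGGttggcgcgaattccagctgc
Rgs7, chr1:175492546-175492795, minus strand: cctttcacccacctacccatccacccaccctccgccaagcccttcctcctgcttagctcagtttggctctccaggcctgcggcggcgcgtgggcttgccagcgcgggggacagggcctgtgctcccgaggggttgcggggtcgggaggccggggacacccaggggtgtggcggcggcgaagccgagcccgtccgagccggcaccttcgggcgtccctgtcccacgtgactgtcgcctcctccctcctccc
Rgs2, chr1:144004150-144004399, minus strand: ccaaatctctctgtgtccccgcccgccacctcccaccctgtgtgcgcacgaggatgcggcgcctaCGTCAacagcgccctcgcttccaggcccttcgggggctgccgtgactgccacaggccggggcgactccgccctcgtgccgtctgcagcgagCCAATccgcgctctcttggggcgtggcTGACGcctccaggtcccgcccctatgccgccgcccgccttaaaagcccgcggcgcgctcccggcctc
The Rgs9 sequence held 1 TATAAA at positions -195 to -190 and 1 CCAAT on the other strand at positions -25 to -21, counted back from that start. The Rgs2 sequence held 2 TGACG matches and 1 CCAAT, and the Rgs7 sequence held none of the 3. Of 32851 such sequences in the table, 12.4% held TATAAA, 33.8% CCAAT and 17.8% TGACG, while the full element TGACGTCA stood in 1.55% and in none of the sequences of the members. These matches describe the letters and were not tested as binding sites. The table held such a sequence for 8 of the 10 members, and Rgs14 and Rgs20 were not among them. Among the members, 6 lie on chromosome 1, with Rgs8 (153652959 to 153697669) close to Rgs16 (153740353 to 153745468).

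Library totals lay between 31360042 and 38844724 counts. The unit of level is CPM, the count relative to TMM-scaled library size, in methylphenidate-sired libraries 2, 4 and 6 and saline-sired libraries 3, 4 and 5, where the number is the one in the column name. The labels do not tie a column to a particular animal. Principal component analysis (28.3% of the variance on its first axis) set saline-sired libraries 3 and 4 apart from the remaining ones. Saline-sired library 3 had the highest choroid plexus signal, with Ttr, the transthyretin gene, at 1905 CPM. Striatal identity was seen in every library, with the medium spiny neuron markers (18 genes of the projection neurons of the striatum) summing to between 13380 and 16830 CPM and none of them at 0. In bulk tissue, fewer cells of a type and less RNA per cell cannot be told apart.

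Divided by the exonic length of each gene in GENCODE, the striatal level was highest for Rgs4. Its level ran from 212.2 to 287.0 CPM per kb over the 6 libraries. Rgs7bp (89.8 to 122.5 CPM per kb) and Rgs9 (81.2 to 113.8) came next and overlapped each other. These 3 genes made up 75.9% to 81.1% of the summed CPM per kb of the 10 members. Rgs2 (29.9 to 46.2 CPM per kb) and Rgs8 (24.5 to 27.8) followed, each apart from its neighbours in the order. Rgs10 (9.80 to 20.3), Rgs14 (10.2 to 15.9) and Rgs20 (12.0 to 16.6) overlapped. Rgs7 (9.06 to 11.1 CPM per kb) lay below Rgs20 but overlapped Rgs10 and Rgs14, and Rgs16 (1.74 to 3.43) was lowest. All exons of a gene enter its length, so genes with long alternative exons, such as Rgs8 with 9640 bases, are placed low by this measure.

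**Figure D1:**
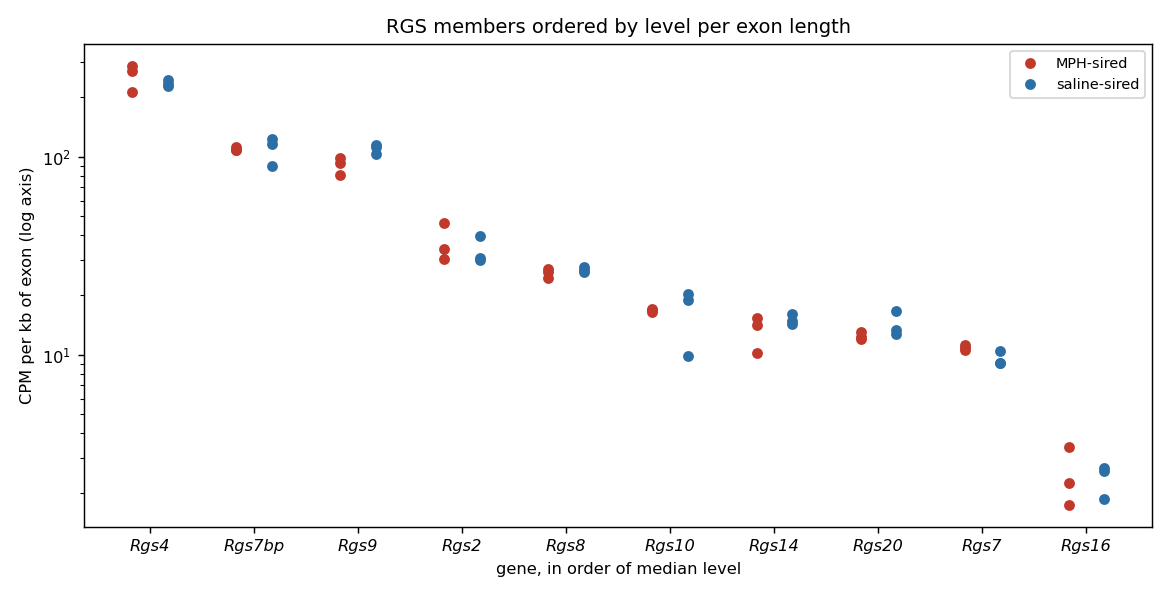
Level of each of the 10 genes per exonic length, in CPM per kb on a log axis, with 1 point per library in red for methylphenidate-sired (MPH-sired) and blue for saline-sired offspring. Rgs4 (212.2 to 287.0) lay above all others and Rgs16 (1.74 to 3.43) below. Rgs7bp and Rgs9 overlapped, as did Rgs10, Rgs14 and Rgs20, and Rgs7 overlapped Rgs10 and Rgs14.

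The comparison between the groups asked how expression in the offspring striatum differed with the treatment of the sire. Of the 10 members, 0 passed the edgeR quasi-likelihood test at a Benjamini-Hochberg adjusted p under 0.05, where 0.0224% of the 17874 genes tested were called. DESeq2 and limma-voom also called 0 of the 10, against 1.42% and 0.0224% of the genes to which they gave an adjusted p. At an unadjusted p under 0.05 there were 2 members by edgeR, Rgs9 with a lower and Rgs7 with a higher value, against 9.02% of all genes tested (3.95% lower and 5.07% higher). For the same 2 members the libraries of the groups did not overlap, against 14.8% of all genes (7.01% lower and 7.84% higher). With only 10 members, these counts do not stand clear of that background. Log2 fold changes, methylphenidate-sired over saline-sired, were below 0 for 4 members (53% of all genes) and above 0 for 6. Their median was 0.02, beside -0.01 over all genes. They ran from -0.27 (Rgs9) to 0.19 (Rgs7).

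**Figure D2:**
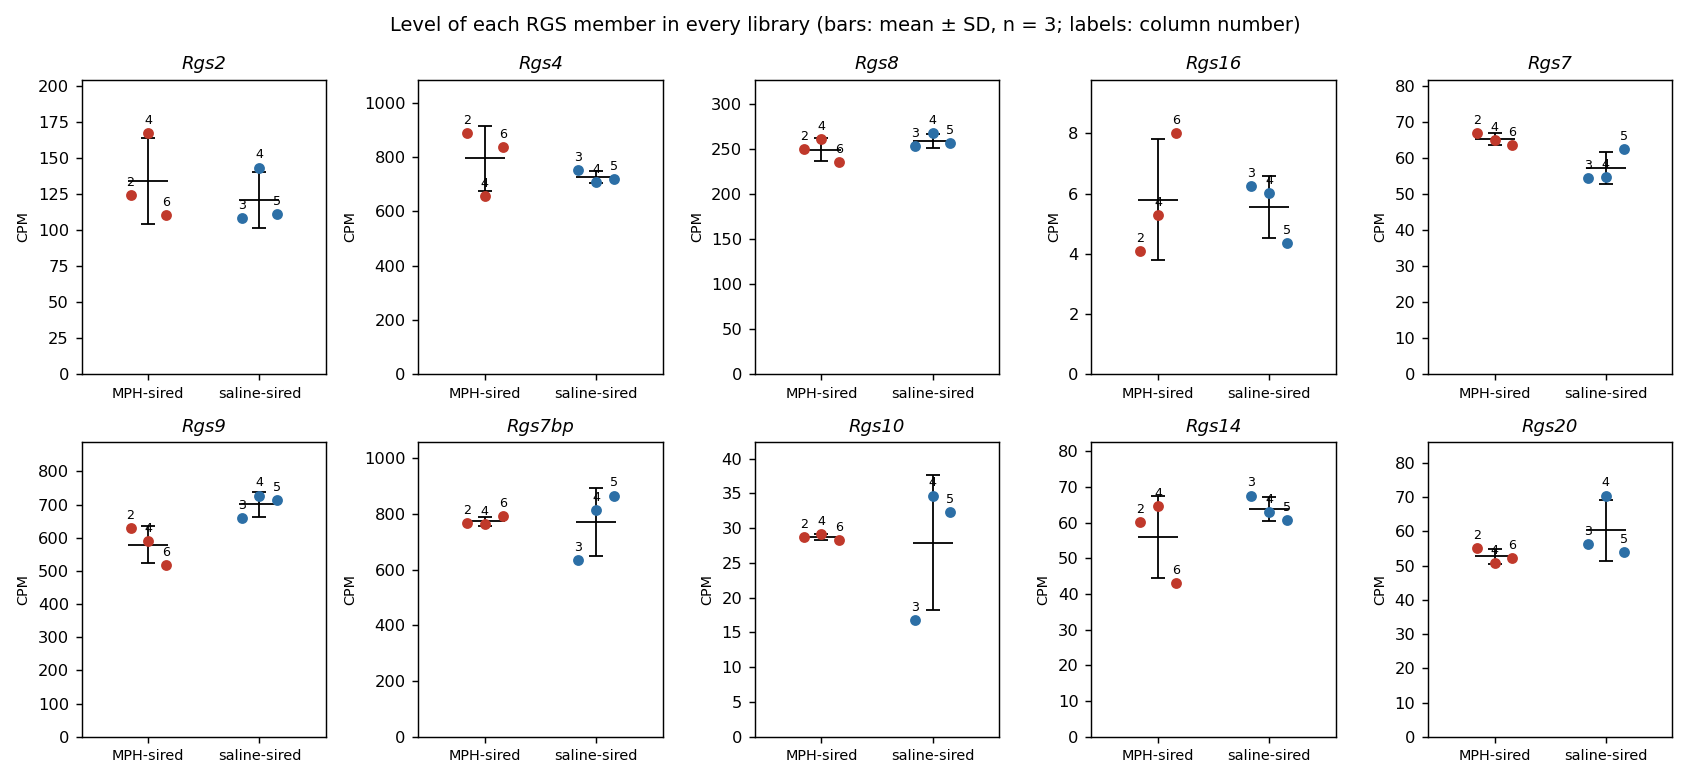
CPM of each RGS member in every library, with methylphenidate-sired (MPH-sired, red) left of saline-sired (blue), column numbers above the points, and mean ± SD (n = 3) in black. Each axis starts at 0; the groups do not overlap for Rgs9 (519 to 629 against 659 to 727 CPM) and Rgs7 (63.6 to 67.0 against 54.5 to 62.5 CPM) and overlap for the other 8.

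In the R7 subfamily, Rgs9 encodes the RGS protein that is typical of the striatum, where its long splice form limits signalling by dopamine and opioid receptors. Rgs9 was at 629, 590 and 519 CPM in methylphenidate-sired libraries 2, 4 and 6, against 659, 727 and 715 CPM in saline-sired libraries 3, 4 and 5. Every methylphenidate-sired library lay below every saline-sired one, with library 6 lowest. The means were 579 ± 55.9 and 700.3 ± 36.5 CPM (SD, n = 3 each), which is -0.27 as a log2 fold change (SE 0.08, unadjusted p = 0.0105, edgeR adjusted p = 0.457). The value did not pass the test, and DESeq2 gave an adjusted p of 0.0724. Without each library in turn it lay between -0.32 and -0.20, with an unadjusted p under 0.05 in all 6 fits (edgeR adjusted p between 0.332 and 0.818).

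Rgs7, the more widely expressed R7 gene of the brain, stood the other way. It was at 67.0, 65.0 and 63.6 CPM in the methylphenidate-sired libraries, against 54.5, 54.8 and 62.5 CPM in saline-sired libraries 3, 4 and 5. The groups were separated by the narrow gap between methylphenidate-sired library 6 and saline-sired library 5. The log2 fold change was 0.19 (SE 0.07, n = 3 per group, unadjusted p = 0.0326, edgeR adjusted p = 0.502), which did not pass. Leaving out saline-sired library 3 gave 0.15 (unadjusted p = 0.101, edgeR), leaving out library 5 of that group gave 0.27 (unadjusted p = 0.00357, edgeR), and leaving out its libraries 3 and 4 together gave 0.06.

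Rgs7bp, the membrane anchor, was at 767, 764 and 793 CPM in the methylphenidate-sired libraries, against 635, 816 and 867 CPM in the saline-sired ones. The saline-sired libraries spanned the others on both sides, with library 3 lowest. The log2 fold change was 0.0037 (SE 0.11, edgeR adjusted p = 0.994), and it was -0.12 without saline-sired library 3. Gnb5, the obligate partner of Rgs7 and Rgs9, was at 251, 246 and 245 CPM in the methylphenidate-sired libraries, against 289, 291 and 272 CPM in the saline-sired ones, with no overlap (log2 fold change -0.20, SE 0.06, unadjusted p = 0.00798, edgeR adjusted p = 0.452). An annotated antisense transcript, Gm19531, covers 8.0% of the exonic bases of Gnb5. Whether counting used strand is not stated, so the Gnb5 count is uncertain. The receptor genes Gpr158 and Gpr179, whose proteins also bind R7 dimers, had log2 fold changes of 0.03 and -0.08. None of these 3 partners passed the test.

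Ratios of read counts within a library do not depend on how libraries are scaled, and 5 were computed within the R7 complex. The ratio of Rgs9 to Rgs7 was 9.39, 9.08 and 8.15 in methylphenidate-sired libraries 2, 4 and 6, against 12.1, 13.3 and 11.4 in saline-sired libraries 3, 4 and 5. It was lower in all 3 methylphenidate-sired libraries, by a log2 difference of -0.47 (SE 0.09). The exact two-sided permutation p was 0.1, the smallest that 3 libraries against 3 allow (0.167 adjusted over the 5 ratios), so no ratio could pass. Without each library in turn the difference lay between -0.52 and -0.41. The ratio was looked at because Rgs9 and Rgs7 differed in opposite directions, so it adds no independent support to either. Against the anchor, the ratio of Rgs9 to Rgs7bp averaged 0.749 ± 0.0855 and 0.917 ± 0.108 (SD, n = 3 each), with the groups separated only by 0.820 in methylphenidate-sired library 2 and 0.825 in saline-sired library 5.

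The ratio of Rgs9 to Gnb5 overlapped between the groups, at 2.34 ± 0.200 in the methylphenidate-sired and 2.47 ± 0.180 in the saline-sired libraries (log2 difference -0.08, SE 0.10, exact two-sided permutation p = 0.6). The ratio of Rgs7 to Gnb5 was 0.267, 0.264 and 0.260 in the methylphenidate-sired libraries, against 0.188, 0.188 and 0.230 in the saline-sired ones, with no overlap (log2 difference 0.39, SE 0.10, exact two-sided permutation p = 0.1). Rgs7 was higher and Gnb5 lower without overlap, so their ratio had to separate and adds no independent support to either. The ratio of Rgs7 to Rgs7bp overlapped (0.0842 ± 0.00363 and 0.0750 ± 0.00970, log2 difference 0.17).

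**Figure D3:**
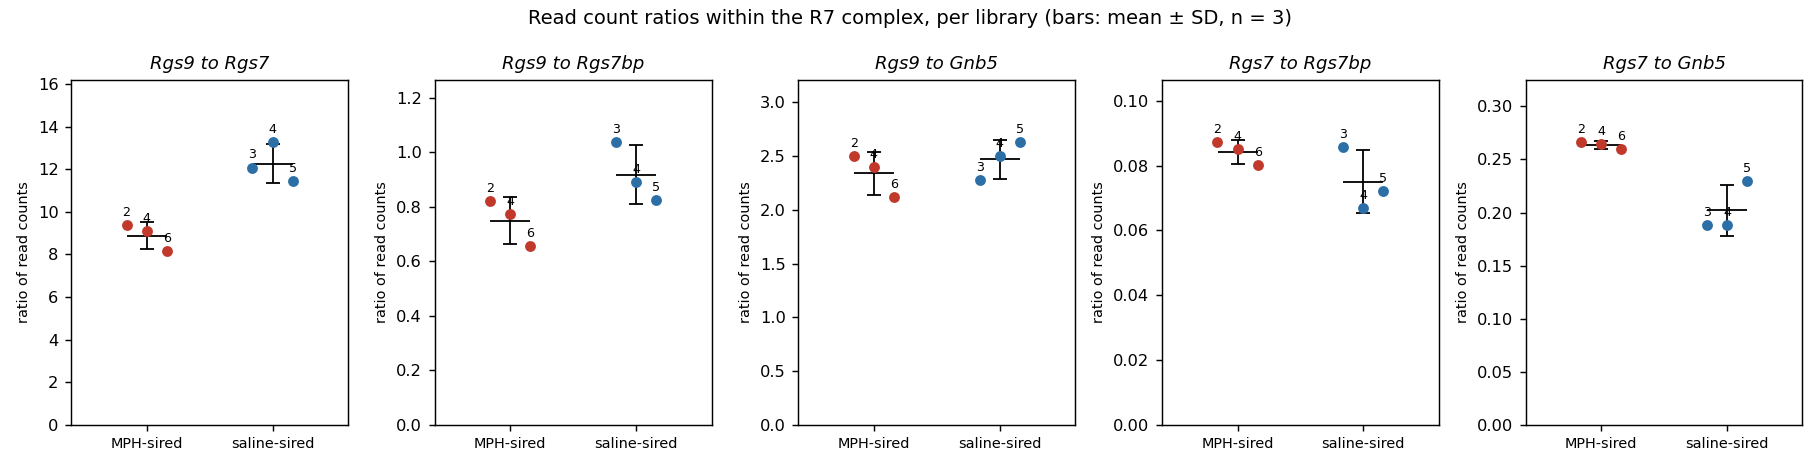
Ratios of read counts between genes of the R7 complex in each library, methylphenidate-sired (MPH-sired, red) left of saline-sired (blue), with mean ± SD (n = 3) in black and axes from 0. Rgs9 to Rgs7 was 8.15 to 9.39 against 11.4 to 13.3, and Rgs9 to Gnb5 overlapped.

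Among the R4 genes, Rgs4 acts on Gi, Go and Gq alpha subunits and is abundant in cortex and striatum. Rgs4 was at 889, 657 and 837 CPM in methylphenidate-sired libraries 2, 4 and 6, against 751, 708 and 720 CPM in the saline-sired libraries. The methylphenidate-sired group held both the highest and the lowest library, and its SD of 121.4 CPM compared with 22.3 CPM in the saline-sired group. The log2 fold change was 0.13 (SE 0.11, edgeR adjusted p = 0.751). Its size turned on libraries of the methylphenidate-sired group, at 0.26 without library 4 (unadjusted p = 0.00844, edgeR adjusted p = 0.744) and 0.06 without library 2.

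Rgs2 acts with preference on Gq, and neurons induce it on activity. Rgs2 was at 124, 168 and 111 CPM in the methylphenidate-sired libraries, against 109, 144 and 112 CPM in the saline-sired ones. The highest libraries were number 4 of each group. The log2 fold change was 0.15 (SE 0.16, edgeR adjusted p = 0.822), and leaving out methylphenidate-sired library 4 gave -0.03, whereas leaving out library 4 of the saline-sired group gave 0.29. Rgs8, which speeds the gating of G protein-coupled potassium channels, varied least of the 10 members over the libraries (coefficient of variation 4.31% over all 6). It was at 251, 261 and 236 CPM in the methylphenidate-sired libraries, against 253, 268 and 257 CPM in the saline-sired ones (log2 fold change -0.06, SE 0.06, edgeR adjusted p = 0.822), with overlapping groups.

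Rgs16, best known as a clock-controlled gene, was the least abundant member, with 134 to 271 counts per library. At 134 counts, counting alone gives an error of 8.64% of the value. Rgs16 was at 4.08, 5.29 and 8.02 CPM in the methylphenidate-sired libraries, against 6.24, 6.03 and 4.36 CPM in saline-sired libraries 3, 4 and 5. The groups overlapped fully. The log2 fold change, 0.06 (SE 0.26, edgeR adjusted p = 0.967), was -0.24 without methylphenidate-sired library 6. An annotated antisense transcript, Gm28513, covers 10.1% of the exonic bases of Rgs16, and no source used here says whether counting used strand, so this count is uncertain.

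In the R12 subfamily, Rgs10 encodes a small RGS protein that is prominent in microglia, and the protein of Rgs14 also carries domains that bind Ras-like GTPases and inactive alpha subunits. Rgs10 was at 28.7, 29.1 and 28.3 CPM in the methylphenidate-sired libraries, against 16.8, 34.7 and 32.4 CPM in saline-sired libraries 3, 4 and 5. Saline-sired library 3 lay far below the other 5, and the log2 fold change was 0.04 (SE 0.23, edgeR adjusted p = 0.975) with it and -0.23 without it (unadjusted p = 0.0276, edgeR adjusted p = 0.707). The microglia markers did not share that drop. Their summed level was 399 to 449 CPM in the methylphenidate-sired and 399 to 458 CPM in the saline-sired libraries, with 411 in library 3, 0 of 12 at 0 counts, 5 of 12 with positive fold changes and 0 at an unadjusted p under 0.05.

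Rgs14 was at 60.1, 64.8 and 43.1 CPM in the methylphenidate-sired libraries, against 67.6, 63.0 and 60.8 CPM in the saline-sired ones. Methylphenidate-sired library 6 was lowest, and the groups overlapped through library 4 of the methylphenidate-sired group. The log2 fold change was -0.19 (SE 0.14, edgeR adjusted p = 0.719), and -0.03 without methylphenidate-sired library 6. Rgs20 of the RZ subfamily acts on the alpha subunit Gz and was at 55.1, 50.8 and 52.3 CPM in the methylphenidate-sired libraries, against 56.3, 70.5 and 54.1 CPM in the saline-sired ones. Saline-sired library 4 was highest, and the other libraries lay close together. Its log2 fold change was -0.19 (SE 0.10, edgeR adjusted p = 0.620), with -0.07 when saline-sired library 4 was left out and -0.25 when its library 5 was (unadjusted p = 0.0436, edgeR). Exons of Atp6v1h on the other strand cover 3.0% of the exonic bases of Rgs20.

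**Figure D4:**
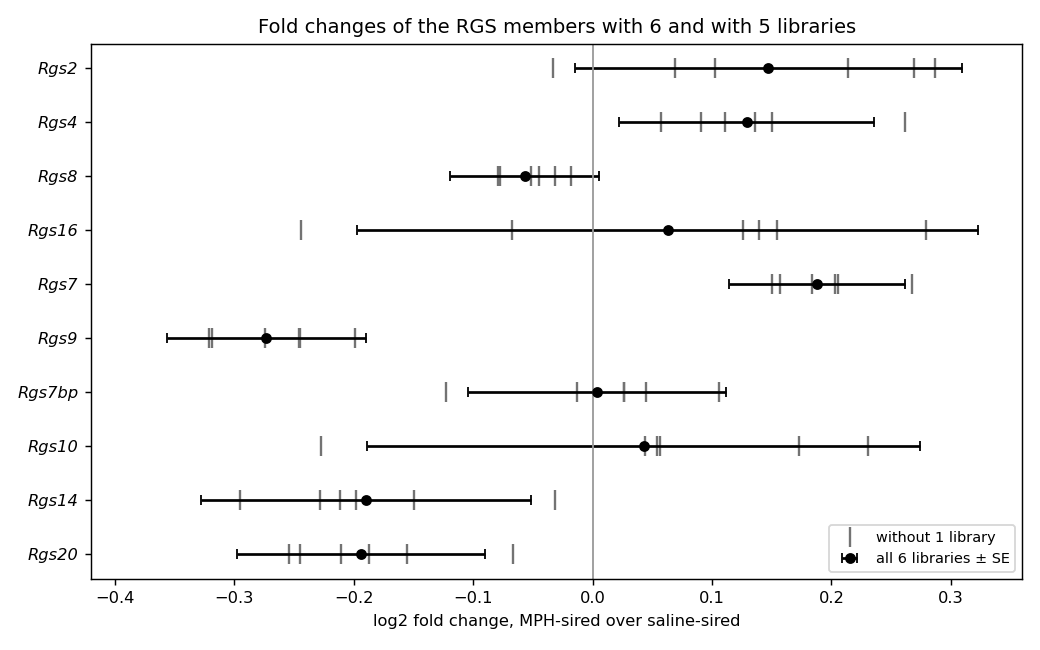
Log2 fold change (methylphenidate-sired, MPH-sired, over saline-sired) of each RGS member, with points and bars for the fit of all 6 libraries ± SE and grey ticks for the fits that leave out 1 library each. The ticks of Rgs9 (-0.32 to -0.20) and Rgs7 (0.15 to 0.27) stay on one side of 0, as do those of Rgs4, Rgs8, Rgs14 and Rgs20, and those of Rgs2, Rgs7bp, Rgs10 and Rgs16 lie on both sides.

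Marker lists were set beside Rgs9, Rgs2 and Rgs4, as a description over the libraries. The lists were chosen with earlier results of these data known, so their counts are no test of a list. Over all genes tested, 9.02% had an unadjusted p under 0.05 by edgeR, and DESeq2 called 1.42% of those with an adjusted p. The medium spiny neuron markers, which do not include Rgs9, had negative fold changes in 18 of 18 (median -0.17; 0 past the edgeR test, 7 at an unadjusted p under 0.05, 3 called by DESeq2). Without methylphenidate-sired library 6 that median was -0.10. Their summed level was 13380 to 15300 CPM in the methylphenidate-sired and 15950 to 16830 CPM in the saline-sired libraries, lowest in methylphenidate-sired library 6 as for Rgs9. Scn4b and Pde1b, a sodium channel and a phosphodiesterase gene of these neurons, had -0.29 and -0.26. The part of these neurons in the Rgs9 value was not tested. Nearest profiles over the 6 libraries were sought among tested genes, leaving out predicted genes, Rik clones and pseudogenes by symbol. Those nearest to Rgs9 were Pde7b, Smad4, Dlx6, Kcng1 and Scn4b (root mean square difference of centred log2 CPM between 0.0324 and 0.0431). Pde7b, a cAMP phosphodiesterase gene, was at 303, 279 and 248 CPM in the methylphenidate-sired libraries, against 328, 338 and 336 CPM in the saline-sired ones. Pde7b was picked for its closeness to Rgs9 over these same libraries, so its values add no independent support to Rgs9.

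The immediate early genes, among which Rgs2 was not listed, had positive fold changes in 13 of 13 (median 0.67; 0 past the edgeR test, 4 at an unadjusted p under 0.05, 0 by DESeq2), with Arc at 1.17 and Nr4a1 at 1.11. The median was 0.435 and Nr4a1 was at 0.55 without methylphenidate-sired library 4, and the median was 1.04 without saline-sired library 4. Their summed level was 626 to 1273 CPM in the methylphenidate-sired and 365 to 746 CPM in the saline-sired libraries, with library 4 highest in each group, as for Rgs2. Rgs2 did not follow them in every library. In methylphenidate-sired library 2 their mean centred log2 CPM was 0.43, and that of Rgs2 was -0.02. The nearest profiles to Rgs2 were those of Trim65, Slc31a2, Zdbf2, Zc3h12c and Peli1 (0.0635 to 0.0817), none of them in that list. The cortical excitatory neuron markers had positive fold changes in 14 of 14 (median 0.81; 0 past the edgeR test, 10 at an unadjusted p under 0.05, 3 by DESeq2), with Nptx1 at 0.69 and Mef2c at 0.52, a list median that became 0.53 on leaving out saline-sired library 4 and 1.23 on leaving out library 5 of that group. They summed to 1403 to 1578 CPM in the methylphenidate-sired and 583 to 1164 CPM in the saline-sired libraries, and none was at 0. Rgs4 did not follow them in every library, since it was lowest in methylphenidate-sired library 4, where their sum was 1415. The nearest profiles to Rgs4 were those of Caml, Sgsm3, Moap1, Stxbp4 and Adamts5 (0.0254 to 0.0458). The part of cortical tissue or of activity in the values of Rgs4, Rgs7 and Rgs2 was not tested.

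**Figure D5:**
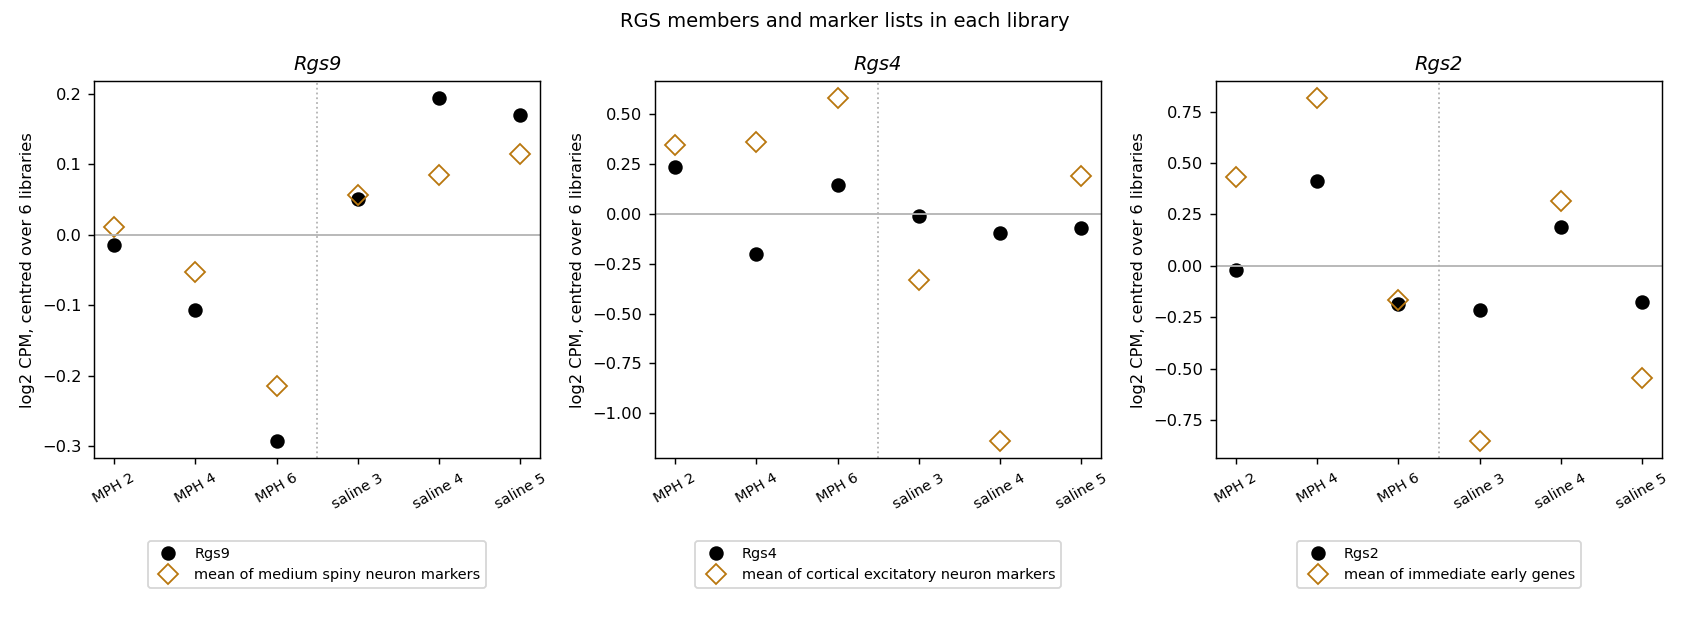
Log2 CPM centred over the 6 libraries for Rgs9, Rgs4 and Rgs2 (black), each beside the mean of a marker list (orange diamonds), with methylphenidate-sired (MPH) libraries left and saline-sired libraries right of the dotted line. Rgs9 and the medium spiny neuron markers were both lowest in MPH 6 (-0.29 and -0.21), and Rgs2 and the immediate early genes were both highest in MPH 4 (0.41 and 0.81).

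The table held 14 other genes whose symbols begin with Rgs, of which 10 passed the filter on low counts. Of these, 7 had positive and 3 negative fold changes (median 0.18, or 0.07 without saline-sired library 4), and 0 passed the edgeR test. Rgs6, also of the R7 subfamily, was at 36.4, 37.8 and 42.5 CPM in the methylphenidate-sired libraries, against 31.5, 36.3 and 29.7 CPM in the saline-sired ones (log2 fold change 0.26, unadjusted p = 0.0288, edgeR adjusted p = 0.491), with little room between the groups. Rgs11, another R7 gene, was at 15.6 to 21.9 CPM in the methylphenidate-sired and 19.7 to 25.5 CPM in the saline-sired libraries, with overlapping groups. Rgs17, of the RZ subfamily like Rgs20, had 0.14 with no overlap, and 0.09 without saline-sired library 3. Rgs12 showed its lowest value in saline-sired library 4 (22.6 CPM, against 40.8 to 58.0 CPM in the other 5). Rgs1, Rgs18, Rgs21 and Rgs9bp did not pass the filter (no library exceeded 10 counts), and Rgs21 had 0 counts in all 6.

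The substrates and downstream partners of RGS proteins also held 0 genes past the edgeR test. The counts in these lists, and in those of other regulators and receptors, stand beside 9.02% of all genes at an unadjusted p under 0.05 (edgeR). For DESeq2 calls the share over all genes was 1.42%. These lists too were chosen with earlier results known. Of 13 genes for alpha subunits, 9 had positive and 4 negative fold changes (median 0.03, with 2 at an unadjusted p under 0.05). Gnai1, the alpha subunit of an inhibitory G protein and an RGS substrate, was at 134.5 ± 4.58 CPM in methylphenidate-sired and 114.8 ± 11.3 CPM in saline-sired offspring (0.23, or 0.15 without saline-sired library 4). Gnas, the stimulatory alpha subunit, had 0.20. The 14 genes for beta and gamma subunits other than Gnb5 divided evenly into 7 positive and 7 negative values. DESeq2 called 2 of these, Gng3 (0.32) and Gng2 (0.56), both without overlap between the groups, as for 14.8% of all genes. Gng2 had 0.37 without saline-sired library 4 and 0.80 without library 5 of that group. Of 15 effector genes, 9 were positive, 6 negative and 7 at an unadjusted p under 0.05 by edgeR. Among them the potassium channel genes Kcnj3 (0.69, DESeq2 adjusted p = 0.00282) and Kcnj6 (0.85, DESeq2 adjusted p = 0.198), whose channels beta and gamma subunits open, had the lowest p. Kcnj3 and Kcnj6 had 0.53 and 0.64 without saline-sired library 4, and 0.89 and 1.17 without library 5 of that group.

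Other regulators of the G protein cycle had 5 positive and 7 negative values among 12 tested genes. The receptor kinase genes Grk3 and Grk2 had 0.34 and 0.24. The 16 striatal receptor genes had 10 negative and 6 positive values (median -0.08), with 7 at an unadjusted p under 0.05 and 2 called by DESeq2. These were the adenosine receptor genes Adora1 (252 ± 8.28 in methylphenidate-sired and 209 ± 14.6 CPM in saline-sired libraries, 0.27) and Adora2a (318 ± 6.06 and 372 ± 13.8 CPM, -0.23), which signal through inhibitory and stimulatory G proteins and stood on opposite sides of 0. Between the groups, Kcnj3, Kcnj6 and Gng2 had the same sign as the cortical markers, and Adora2a the same sign as the medium spiny neuron markers. Their part was not tested.

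Markers of the other cell types in the dissected tissue were compared in the same fit. The choroid plexus markers were negative in 12 of 12 tested (median -3.07, with Sostdc1 at -3.63 and Aqp1 at -3.31), at 40.2 to 92.2 summed CPM in the methylphenidate-sired and 34.2 to 2158 CPM in the saline-sired libraries, so that saline-sired library 5 lay below every methylphenidate-sired one. Leaving out saline-sired library 3 gave a median of -1.48 and fold changes of -2.02 for Sostdc1 and -1.54 for Aqp1. The ependymal markers were negative in 10 of 10 (median -0.44, with Dynlrb2 at -1.11 and Mlf1 at -1.06), with a median of -0.18 without the same library. Oligodendrocyte markers were negative in 10 of 10 (median -0.21, with Mog at -0.25 and Cnp at -0.25). Their sum was highest in saline-sired library 4, where Rgs8, Rgs9, Rgs10 and Rgs20 also had their highest values. Without that library the median of the oligodendrocyte markers was 0.08, with Mog at -0.04 and Cnp at -0.0010. Without methylphenidate-sired library 2 that median was -0.06. None of the astrocyte, vascular and microglia lists kept the sign of its median without each library. Astrocyte markers were negative in 4 of 10 (median 0.0058, with Gfap at -0.37 and Slc1a2 at 0.11) and endothelial and mural markers in 8 of 10 (median -0.04, with Acta2 at -0.53 and Ly6c1 at -0.24). Microglia markers were negative in 7 of 12 (median -0.02, with C1qc at -0.18 and Aif1 at 0.45). None of these genes passed the edgeR test, and DESeq2 called 0 of them, giving no adjusted p to 5 of the 12 choroid plexus and 8 of the 10 ependymal markers. Their part in the values of the members was not tested.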

How the data were processed

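RNA of striatum from 6 offspring was sequenced. Per the submitters' processing notes, bcl2fastq 2.20.0, Trimmomatic, HISAT2 2.1.0 and StringTie 2.1.3b were used with build mm10; their order and settings, the strandedness and the handling of multi-mapping reads are not stated there. The table deposited by the authors holds whole-number read counts per gene, not normalized. Its 12 further per-library columns were not used. Column names give the group but not the labelled animal, and sex was not read from expression values, so neither sex nor replicate number entered a fit.

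Counts were tested with edgeR 4.0.16 (R 4.3.3, quasi-likelihood F test, TMM scaling, filterByExpr, 17874 genes, Benjamini-Hochberg over all of them, threshold 0.05). Each SE of a gene is the size of its log2 fold change over the root of F. For a ratio, the SE is the root of the summed group variances of the log2 ratios, each divided by 3. DESeq2 1.42.0 and limma-voom (limma 3.58.1), other filters and scaling, and leaving out each library were alternatives. The edgeR fit, with a filter of at least 10 counts in 3 libraries, was also run on simulated data with 200 changed genes. Its outcome is not given here, so it does not show how the main fit performs on these data. Centred log2 CPM used a prior count of 2. Lengths came from GENCODE vM21. Members and lists were chosen with earlier results of these data known. The text names the members, the 2 genes of lowest p of each list (or those past the test), and for Rgs9, Rgs4 and Rgs2 the 5 genes of nearest profile with average log2 CPM of at least 1. Predicted genes, Rik clones and pseudogenes were left out of that search by symbol. Rgs11, Rgs12, Gpr179, Ttr, the ratios within the R7 complex and the list medians with 1 library left out were chosen after values were seen. Transcripts of the members were compared by blastn 2.17.0 (at least 95% identity over 200 bases); only Gm28513, antisense to Rgs16, matched.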

Additional observations from a re-analysis of the deposited data

How the results depend on the processing

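Across all alternatives, 0 of the 10 RGS members passed the test. Over the settings run for each fold change of a member, 112 kept the direction and 8 changed it. With 1 library left out, Rgs7bp ran from -0.12 to 0.11, Rgs10 from -0.23 to 0.23, Rgs2 from -0.033 to 0.29, Rgs16 from -0.24 to 0.28, Gpr158 from -0.018 to 0.084 and Aif1 from -0.0018 to 0.67. Without saline-sired library 3, Rgs7bp had -0.12 and Rgs10 -0.23. Rgs2 turned negative (-0.033) without methylphenidate-sired library 4. Dropping methylphenidate-sired library 6 turned Rgs7bp (-0.013), Rgs16 (-0.24) and Aif1 (-0.0018), dropping library 5 of the saline-sired group turned Rgs16 (-0.067), and Gpr158 turned when methylphenidate-sired library 2 (-0.0020) or saline-sired library 3 (-0.018) was dropped. Leaving out 1 library gave 1 to 4 genes past the test over all genes, 1 to 3 members at an unadjusted p under 0.05, and member medians between -0.10 and 0.078. DESeq2 called 183 genes over all genes, none of them a member. Without saline-sired libraries 3 and 4, a setting added after seeing the data that leaves 1 library against 3, 0 genes passed (edgeR), 1 member had an unadjusted p under 0.05 (Rgs9), and Rgs7bp had -0.16, Rgs10 -0.17, Gpr158 -0.051, Aqp1 0.040, Sostdc1 0.61, Gfap 0.071, Slc1a2 -0.0014, Mog 0.23, Cnp 0.28 and Ly6c1 0.015. DESeq2 moved 9 other named genes past the threshold. The 30 ratio differences without 1 library kept their sign. The cause of these shifts was not tested. No paired analysis was possible because the columns carry no label that ties them to the numbered animals. With 3 libraries per group no exact permutation test can reach a p under 0.05.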

Other observations

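Transcripts of 4 Y-linked genes summed to 176 CPM in methylphenidate-sired library 4 and 180 CPM in saline-sired library 4, and to at most 0.213 CPM in the other 4 libraries. The labels list 1 male per group. In the same 2 libraries Rgs2 (168 and 144 CPM), Rgs8 (261 and 268 CPM) and Rgs10 (29.1 and 34.7 CPM) had the highest value of each group. Rgs4 had its lowest of each group there (657 and 708 CPM). The remaining members were neither highest in both nor lowest in both. These values are given as a description, and libraries were not grouped by them.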
